A study of Mus musculus with 2 samples.

Results

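The cells described here are hippocampal astrocytes that carried much Gfap RNA and no detected Lcn2 RNA. They were selected on their counts of unique molecular identifiers (UMIs, one per captured RNA molecule) by a chain of conditions. A barcode needed at least 500 genes, at most 15% mitochondrial UMIs, and a UMI of at least 5 of the 7 astrocyte genes Aldoc, Slc1a3, Ntsr2, Mlc1, Slc4a4, Gpr37l1 and Cldn10. It could hold at most 1 UMI of P2ry12 (microglia) and of Mog (oligodendrocytes), no UMI of Frzb or Lcn2, and fewer than 2 of Tnc, Hhatl and Col11a2. It needed at least 10 Gfap UMIs per 10000 UMIs of the cell. These conditions left 68 of 6861 barcodes in the WT library and 546 of 8733 in the 60TM library, 614 of 15594 in all. They are called Gfap-high astrocytes below.

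WT mice were C57BL6/J, and 60TM mice carried the genotype GFAP-hGFAP on the same C57BL6/J background, in a study of an Alexander disease model. Mice of both genotypes were 7 weeks old. Each genotype gave 1 single-cell library from the papain-dissociated hippocampi of 3 mice, and barcodes were not traced to mice. The promoter and the form of GFAP in the transgene are not given in the sources used here, nor is the gene to which reads of the human transgene were assigned, so counts of Gfap may hold both species' RNA. With 1 library per genotype no difference was tested, and all intervals are 95% intervals that cover counting error only.

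GFAP is the main intermediate filament protein of mature astrocytes, and more of it is made when astrocytes become reactive. In Alexander disease, altered GFAP gathers with small heat shock proteins into Rosenthal fibres inside astrocytes. Astrocytes also clear glutamate and potassium, supply cholesterol to neurons, and buffer metals and oxidants, while Lcn2 (lipocalin 2, an iron-carrier-binding secreted protein) marks strongly inflamed astrocytes.

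The libraries held 63532407 (WT) and 80684152 (60TM) UMIs, with medians of 7053 and 7270 per barcode. The 2 libraries had 20 barcode sequences in common, which included 0 WT and 2 60TM Gfap-high astrocytes. A Lcn2 UMI was found in 0 gated astrocytes of WT and in 473 of 60TM. The condition of no Lcn2 thus removed cells from the 60TM library only.

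Gfap-high astrocytes made up 0.991% (0.770 to 1.25, exact Clopper-Pearson interval) of WT barcodes and 6.25% (5.75 to 6.78) of 60TM barcodes. Among gated astrocytes without Lcn2 they were 68 of 989 in WT, or 6.88% (5.38 to 8.64), and 546 of 1718 in 60TM, or 31.8% (29.6 to 34.0). Gfap itself set these shares, so they describe the selection. No Gfap UMI was seen in 42.7% of the gated WT astrocytes and in 17.8% of those of 60TM. Between 10 and under 20 Gfap UMIs per 10000 lay 4.75% and 22.6%, between 20 and under 40 lay 1.52% and 8.21%, and at 40 and over lay 0.607% (6 cells) and 0.990% (17 cells). The WT cell just inside the threshold had 10.3 Gfap UMIs per 10000 and the one just outside 9.91, and the 60TM cells had 10.0 and 9.97. From 9 to under 10 there were 16 WT and 61 60TM cells, and from 10 to under 11 there were 5 and 58.

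**Figure D1:**
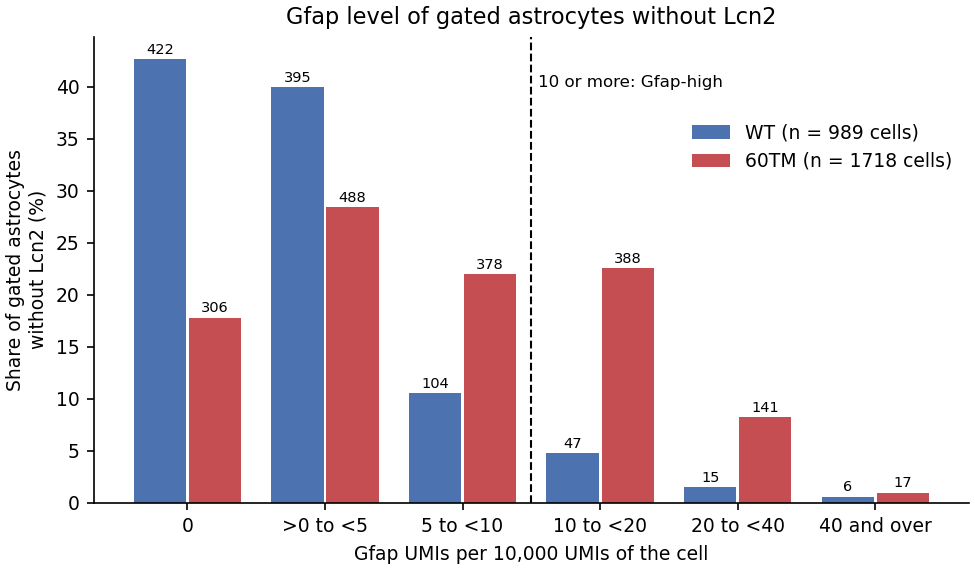
Bars give the share (%) of gated astrocytes without Lcn2 in bins of Gfap UMIs per 10000 UMIs of the cell, by library, with cell numbers above the bars and the selection threshold of 10 as a dashed line. The 68 WT and 546 60TM cells right of the line are the Gfap-high astrocytes, with medians of 15.3 and 15.8.

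Within the selected cells the Gfap level was alike in both libraries, with a median of 15.3 per 10000 in WT and 15.8 in 60TM. Summed over cells, Gfap (chr11:102887336-102900912, minus strand, GRCm38) stood at 2010 CPM (UMIs of a gene relative to all UMIs of the selected cells, scaled to one common total for both libraries) in WT and 1773 in 60TM, against 14.9 CPM in 60TM microglia, which should lack it. Aldoc, the brain form of the glycolytic enzyme aldolase, was at 3196 and 4021 CPM and was detected in 66 of 68 and 544 of 546 cells. Vim, which encodes vimentin, the filament partner of GFAP, was at 673 and 663 CPM and was detected in 39 WT cells (57.4%) and 384 60TM cells (70.3%). Vim was at 15.5 CPM in 60TM microglia, and 3 WT cells held 41.0% of its WT UMIs; its ratio of 0.985 (0.856 to 1.14) ran from 0.596 to 1.36 over the alternatives. All 7 astrocyte genes were present in 45 of 68 (66.2%) and 429 of 546 (78.6%) cells. Gfap and these 7 genes belong to the selection and say nothing further of the cells. Among astrocyte genes outside it, the glutamate transporter gene Slc1a2 was found in 68 of 68 and 545 of 546 cells, the gap junction gene Gja1 in 64 and 511, and the water channel gene Aqp4 in 61 and 459, while 60TM microglia were at 32.9, 4.51 and 4.16 CPM of the 3 genes.

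The Gfap-high astrocytes of the libraries differed in depth. Their median was 4133 UMIs and 1921.5 genes per cell in WT, and 7189.5 UMIs and 2632 genes in 60TM. A relative threshold is reached with few molecules in a shallow cell: 18 WT cells (26.5%) and 37 60TM cells (6.78%) passed with at most 3 Gfap UMIs. The median mitochondrial share was 4.57% and 4.63%. Exactly 1 of Tnc, Hhatl and Col11a2 was detected in 38 of 68 WT cells, 55.9% (43.3 to 67.9), and in 126 of 546 60TM cells, 23.1% (19.6 to 26.8). The comparison below was therefore repeated in cells of 4000 to 15000 UMIs (33 WT and 392 60TM cells) and in cells with none of the 3 genes (30 and 420).

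Markers of other cell types were summed over the Gfap-high astrocytes. Oligodendrocyte markers (8 of 8 detected in each library) came to 494 and 509 CPM, neuron markers (7 and 8 of 8) to 60.9 and 60.7 CPM, and microglia markers (7 and 10 of 10) to 125 and 161 CPM, with Cx3cr1, Tmem119 and Aif1 at 0 in WT. Oligodendrocyte precursor markers (3 and 6 of 6) were at 135 CPM (97.0 to 182) and 202 CPM (189 to 216), with Pdgfra, Cspg4 and Neu4 at 0 in WT. At least 2 of them were found in 1 WT cell (1.47%) and 78 60TM cells (14.3%), at the unlike depths given above. Of 2 precursor markers compared singly, 1 was at least 1.5-fold higher in 60TM and 1 lower. Endothelial markers (2 and 5 of 5) were at 22.4 and 183 CPM, with Flt1, Pecam1 and Ly6c1 at 0 in WT, and pericyte markers (2 and 5 of 5) at 25.6 and 135 CPM, with Kcnj8, Abcc9 and Acta2 at 0 in WT. Choroid plexus markers (2 and 5 of 5) were at 64.1 and 733 CPM, with Kl, Clic6 and Kcne2 at 0 in WT, and ependymal markers (6 of 6 in each) at 343 and 208 CPM. Ttr alone gave 12 of the 20 choroid plexus UMIs in WT and 3050 of the 3081 in 60TM, where 1 cell held 49.0% of the sum, and the other 4 markers summed to 25.6 CPM (11.1 to 50.5) and 7.38 CPM (5.01 to 10.5). Endothelial markers were found in 66 and pericyte markers in 40 of the 546 60TM cells, and without the cell that held the most they were at 139 and 102 CPM. Endothelial and pericyte markers, the summed oligodendrocyte precursor markers and Ttr were thus higher in the 60TM cells, and the other choroid plexus markers were not. The part of these RNAs in other differences was not tested.

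Across the genome, 5888 genes had a mean of at least 25 CPM over both libraries and were compared. A gene was counted as higher or lower in 60TM at a ratio of at least 2-fold with its interval on one side of 1. By this rule 171 genes (2.90%) were higher and 417 (7.08%) were lower in the 60TM Gfap-high astrocytes. At 1.5-fold, the rule used for gene lists below, 314 (5.33%) were higher and 787 (13.4%) lower. The median log2 ratio of CPM plus 5 over all compared genes was -0.10. A gene low in one library could pass the filter on the mean through the other library alone, as did 74 of the 171 higher genes, under 25 CPM in WT, and 233 of the 417 lower genes, under 25 CPM in 60TM. For lists touched by this, values over all their genes without the filter are given. The WT sum rests on 311935 UMIs and the 60TM sum on 4202920, so the WT counts set the precision. In 49 of the 417 lower genes, 3 WT cells held over 50% of the WT UMIs, and 45 had a UMI in fewer than 10 WT cells. In 7 of the 171 higher genes 3 cells held over 50% of the 60TM UMIs, and 49 of the 171 were at least as high in 60TM microglia as in the 60TM Gfap-high astrocytes.

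The same comparison in the 921 WT and 1172 60TM astrocytes of the same gate under the Gfap threshold gave fewer calls. The WT sum there rested on 7452996 UMIs, against 311935 above the threshold. The part of this difference in the numbers of calls was not tested. Of 6105 genes compared there, 42 (0.688%) were at least 2-fold higher and 213 (3.49%) lower in 60TM, and at 1.5-fold 137 (2.24%) and 455 (7.45%), with a median log2 ratio of -0.04. Of 5419 genes compared on both sides of the threshold, 159 were higher in Gfap-high cells and 24 in the others. The 19 in common were 11.9% of the first list and 79.2% of the second. The lower genes numbered 262 and 62 with 26 in common, or 9.92% and 41.9%. No gene was called in opposite directions at 2-fold.

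**Figure D2:**
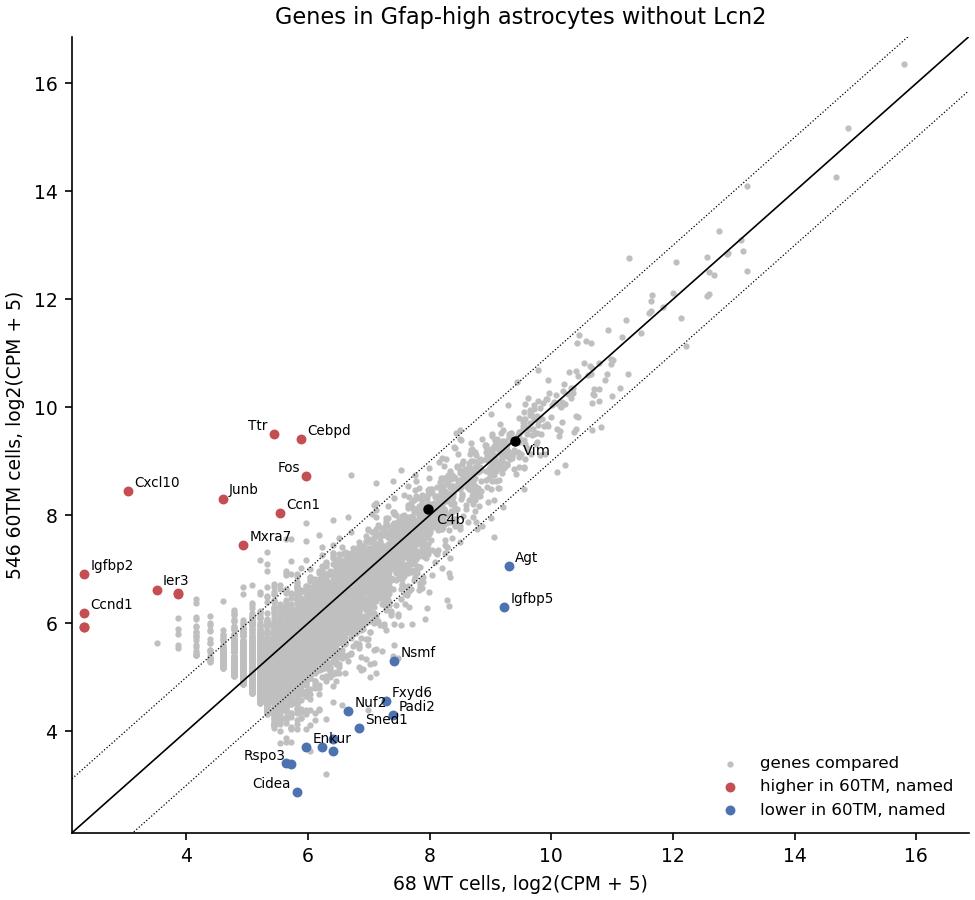
Level of each compared gene in the 68 WT (x axis) and 546 60TM (y axis) Gfap-high astrocytes, as log2 of CPM plus 5, with the line of equal level and dotted lines at 2-fold. Red and blue points are the named genes with the highest and lowest ratios; C4b and Vim lie near the line of equal level.

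The 14 genes with the highest ratios included chemokine, acute phase and immediate early genes. Genes are named here by their rank among all ratios, so these values are a description. Cxcl10 (chr5:92346638-92348889, minus strand), a chemokine that attracts T cells, had 1 UMI in WT (3.21 CPM) and 1456 in 60TM (346 CPM), a ratio of 108 (19.4 to 4271). It was detected in 1 of 68 WT and 127 of 546 60TM cells. Cebpd (chr16:15887286-15891031, plus strand), a transcription factor of the acute phase response, was at 54.5 and 680 CPM, a ratio of 12.5 (7.77 to 21.4), and was detected in 9 and 400 cells. Under the Gfap threshold, Cebpd was at 44.4 and 136 CPM, a ratio of 3.07, and the ratio of the 2 ratios was 4.07 (2.49 to 6.65). In WT, Cebpd was thus near one level on both sides of the Gfap threshold, while in 60TM it was 4.99-fold (4.67 to 5.34) higher above it. Over the alternatives the Cebpd ratio ran from 8.64 to 22.3 and the Cxcl10 ratio, with its single WT UMI, from 43.3 to 375 over those that left a WT UMI.

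The 4 higher genes Igfbp2, Ccnd1, Ccl2 and C3 had no UMI in the 68 WT cells, and their ratios are given against a floor of 3 WT UMIs over the group. The lower bounds of their exact intervals were 9.70, 5.74, 4.73 and 4.71 in the same order. Igfbp2, a secreted binding protein of insulin-like growth factors, was at 115 CPM in 60TM, at least 11.97-fold higher, and was found in 157 cells. Under the Gfap threshold Igfbp2 was at 204 CPM in WT and 183 in 60TM, so WT astrocytes with little Gfap did carry it. Ccnd1 (cyclin D1) was at 68.3 CPM in 60TM, at least 7.10-fold higher. Ccl2, a monocyte chemokine, was at 56.4 CPM in 60TM (at least 5.86-fold higher), but 3 cells held 67.1% of its UMIs, only 23 cells had one, and 60TM microglia were at 96.4 CPM. C3, the central complement component, was at 56.2 CPM (at least 5.84-fold higher) in 44 cells, 3 of which held 54.2%.

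The remaining genes of high ratio were Mxra7 at 25.6 and 171 CPM (ratio 6.66, 3.36 to 15.5), Ccn1, a matrix-associated growth regulator, at 41.7 and 258 CPM (6.19, 3.60 to 11.7), and Ifit3, an interferon-induced antiviral gene, at 9.62 and 88.0 CPM (9.15, 3.11 to 44.6). Mxra7 and Ifit3 had ratios of 6.18 and 5.17 under the Gfap threshold too. Ttr (transthyretin, made by choroid plexus) was at 38.5 and 726 CPM, but 1 60TM cell held 49.1% of its UMIs and 60TM microglia were at 829 CPM, so Ttr is at the level of free RNA.

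Shares of cells with a UMI were also compared after thinning each cell to 2000 UMIs, which left 49 WT and 498 60TM Gfap-high astrocytes. Cebpd was then detected in 6.12% of WT and 50.2% of 60TM cells, against 13.2% and 73.3% without thinning. In microglia, which express Cebpd themselves, the thinned shares were 29.1% and 39.6%. Cxcl10 was detected in 0 of 49 WT cells, which allows a share of cells with a UMI of up to 6.12% (3 of 49; the exact interval reaches 7.25%), and in 13.5% of 60TM cells (1.47% and 23.3% without thinning), against 1.20% of 60TM microglia. Ttr was in 53.6% of thinned 60TM Gfap-high cells and in 53.7% of 60TM microglia, which is the background share.

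Genes of inflammation and reactivity differed in both directions. Of the pan-reactive astrocyte genes, 6 of 11 were compared, and 4 had ratios of at least 1.5-fold. All 4 passed the filter only through 60TM and were under 25 CPM in WT, so the count and the median log2 ratio of the 6 (1.73) are set in part by the filter. Over all 11 genes without it the median was 1.47, with the same count of 4 higher and none lower. Osmr, the oncostatin M receptor, was at 12.8 and 64.2 CPM (ratio 5.01, 1.93 to 18.5), Serpina3n, a secreted protease inhibitor, at 12.8 and 55.9 CPM (4.36, 1.68 to 16.1), and S1pr3, a sphingosine phosphate receptor, at 12.8 and 52.1 CPM (4.06, 1.56 to 15.05), each on 4 WT UMIs. The fourth was Cxcl10. Vim and Cd44 did not pass the rule. Stat3, the transcription factor most tied to reactive astrocytes, was at 109 and 110 CPM, a ratio of 1.01 (0.711 to 1.47). Of the 8 compared genes of its pathway, Osmr and Cebpd were higher, and Il6st (ratio 0.565) and Lifr (0.609), which encode receptor chains of the interleukin 6 family, were lower.

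C4b (chr17:34728380-34743882, minus strand), a complement component that is a common marker of reactive glia, gave the opposite picture to Cebpd. It was at 247 CPM in WT and 272 in 60TM Gfap-high astrocytes, a ratio of 1.10 (0.874 to 1.41). Under the threshold it was at 16.4 and 95.0 CPM, a ratio of 5.80, so the ratio of ratios was 0.190 (0.141 to 0.256). C4b was 15.1-fold (11.2 to 20.2) higher above than below the Gfap threshold in WT and 2.86-fold (2.62 to 3.13) in 60TM. Few of its UMIs lay in cells that should lack it: after thinning, 3.96% of 60TM microglia had one, against 36.9% of 60TM and 32.7% of WT Gfap-high astrocytes. Over the alternatives the C4b ratio ran from 0.932 at 20 or more Gfap UMIs per 10000 to 2.09 at 5 or more. It was 1.66 in cells with none of Tnc, Hhatl and Col11a2 and 1.36 in cells of 4000 to 15000 UMIs. C4a, a near-identical copy, may share reads with it.

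The level of Gfap accompanied these patterns within the selected cells. C4b was at 193, 321 and 432 CPM in WT cells of 10 to under 20, 20 to under 40, and 40 or more Gfap UMIs per 10000, and at 251, 319 and 458 CPM in 60TM cells of the same bins. Below the threshold, at 0, above 0 to under 5, and 5 to under 10, C4b was at 13.2, 13.5 and 46.7 CPM in WT and at 57.6, 62.7 and 171 CPM in 60TM. C4b therefore differed between the libraries at low Gfap and, over all selected cells, not beyond counting error at 10 and over. Cebpd was at 57.9, 40.2 and 66.5 CPM in the 3 WT bins above the threshold and at 538, 1082 and 830 CPM in 60TM. The 2 upper WT bins hold 15 and 6 cells, and the bin of 10 to under 20 alone, with 47 WT and 388 60TM cells, gave ratios of 1.30 (0.945 to 1.83) for C4b and 9.28 (5.30 to 18.0) for Cebpd.

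**Figure D3:**
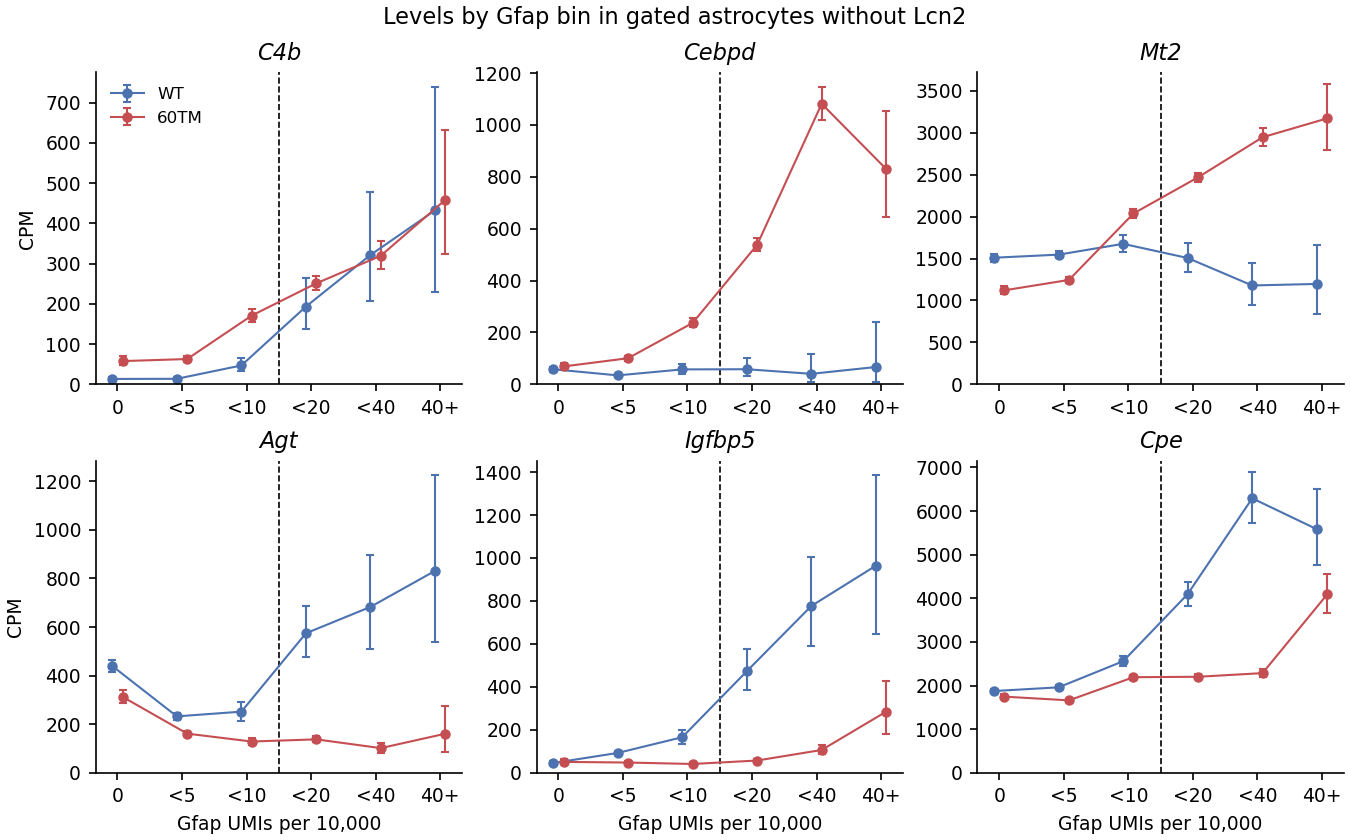
Levels in CPM of single genes in bins of Gfap UMIs per 10000, in WT and 60TM astrocytes without Lcn2, with exact Poisson intervals. C4b meets between the libraries above 10 Gfap UMIs per 10000, Cebpd is apart there (538 against 57.9 CPM from 10 to under 20), and Agt and Igfbp5 are lower in 60TM in every bin from 10 on (138 against 574 and 57.3 against 473 CPM from 10 to under 20).

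Immediate early genes, which are switched on within minutes by many stimuli, were higher in most members. Of 19 genes 12 were compared, and 11 were at least 1.5-fold higher in 60TM and none lower, with a median log2 ratio of 1.71. Junb, Ier3, Klf6 and Zfp36 were under 25 CPM in WT, and over all 19 genes without the filter 11 were higher, none was lower and the median was 1.56. Junb was at 19.2 and 312 CPM (ratio 16.2, 7.44 to 44.3), and Fos, its partner in the AP-1 transcription factor, at 57.7 and 418 CPM (7.24, 4.57 to 12.2), with 77.8% of the 18 WT UMIs in 3 cells. Ier3 had 2 WT UMIs and a ratio of 14.6 (4.02 to 121), and Zfp36, which shortens the life of cytokine mRNAs, had 3 and a ratio of 9.25 (3.14 to 45.1). Klf6 (4.18), Egr1 (4.10), Ier2 (3.44), Btg2 (2.63), Jun (2.42), Dusp1 (2.39) and Jund (2.14) were higher as well. Ier5 was at 76.9 and 56.4 CPM and did not pass. Under the Gfap threshold 8 of 13 were higher and none lower, with a median of 0.98. The group's median in Gfap-high cells was 2.28 in cells of 4000 to 15000 UMIs. All 11 higher genes were higher still in 60TM microglia (Junb at 1494 CPM in WT and 2050 in 60TM), and the summed microglia markers were at 125 and 161 CPM in the Gfap-high cells. The part of free RNA from microglia in these ratios was not tested.

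Dusp1 encodes a phosphatase that ends MAP kinase signals and Btg2 an inhibitor of proliferation. Their promoters are shown because they hold a full cAMP response element, TGACGTCA, in the 250 bases before the start annotated by RefSeq. Of the 17 immediate early genes with a RefSeq promoter (GRCm38.p6), these 2 held it (11.8%), against 1.62% of 27025 promoters. The element is in capitals, and both stretches lie on the minus strand, at chr17:26508496-26508615 for Dusp1 and chr1:134079202-134079321 for Btg2. By the gene bounds of the GENCODE M21 annotation, the Dusp1 stretch lies inside the gene.
Dusp1: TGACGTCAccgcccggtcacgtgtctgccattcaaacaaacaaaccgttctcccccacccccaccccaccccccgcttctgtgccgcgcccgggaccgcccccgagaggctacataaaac
Btg2: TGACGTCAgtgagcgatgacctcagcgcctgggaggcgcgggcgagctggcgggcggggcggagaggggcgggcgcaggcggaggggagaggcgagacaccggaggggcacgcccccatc
The AP-1 motif TGANTCA was in 0 of the 17 windows and in 6.87% of all promoters, with both strands searched. A match is a description of the letters only. Dusp1 was at 48.1 and 115 CPM and Btg2 at 38.5 and 101 CPM.

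NF-kB target genes were split. Of 6 compared, Cxcl10, Ccl2 and Nfkbia were higher and Nfkb1 lower (ratio 0.437), with a median log2 ratio of 1.30. Cxcl10 and Ccl2 passed the filter only through 60TM, which sets this count and median in part, and over all 15 genes without the filter the median was 1.52. Nfkbia, the inhibitor that NF-kB induces in a feedback loop, was at 99.4 and 427 CPM, a ratio of 4.30 (3.02 to 6.34), against 2.22 under the threshold. Of 13 compared interferon response genes 5 were higher and none lower (median 0.57): Ifit3, Irf1 (ratio 3.10), Bst2 (2.12), Ifnar2 (1.87) and Ifi27 (1.57). Ifit3 and Irf1 were under 25 CPM in WT, and over all 23 genes without the filter 6 were higher, none lower, and the median was 0.83. Under the threshold 4 of 8 compared were higher, with a median of 0.55. H2-D1, an antigen-presenting MHC class I gene, was at 83.4 and 139 CPM (1.67, 1.13 to 2.58), and Tap2, a peptide transporter, at 28.9 and 60.4 CPM (2.09, 1.09 to 4.63). They were the 2 higher of 5 compared MHC class I genes. H2-D1 shares sequence with other class I genes, and reads may have been split among them. Bst2, H2-D1 and Irf1 were higher in 60TM microglia (346, 859 and 52.1 CPM) than in the Gfap-high astrocytes.

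Above the Gfap threshold, 3 of 7 compared genes of iron handling, 2 of 3 metallothioneins and 7 of 16 targets of Nrf2 were at least 1.5-fold higher in 60TM, and none was lower. Fth1 and Ftl1 encode the ferritin chains that store iron. Fth1 (chr19:9980598-9985098, plus strand) was at 2491 CPM in WT and 6993 in 60TM, a ratio of 2.81 (2.61 to 3.02), and was found in 66 and 544 cells. Under the threshold its ratio was 1.27, and the ratio of ratios was 2.20 (2.05 to 2.37). Ftl1 was at 692 and 1423 CPM (2.05, 1.79 to 2.36), and Steap3, an iron reductase, at 16.03 and 39.3 CPM (2.45, 1.03 to 7.64). These were the 3 higher genes of iron handling, of which Steap3 was under 25 CPM in WT, and over all 12 genes of the list without the filter the median log2 ratio was 0.28. Ferritin genes have many processed copies in the genome. In microglia Fth1 was at 4280 CPM in WT and 4290 in 60TM.

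Metallothioneins, small proteins that bind zinc and copper, were at high levels. Mt1 was at 9502 and 17558 CPM (ratio 1.85, 1.78 to 1.92), Mt2 at 1398 and 2602 CPM (1.86, 1.69 to 2.05), and Mt3, the brain form, at 6918 and 9899 CPM (1.43, 1.37 to 1.49). Mt1 and Mt2 passed the 1.5-fold rule and Mt3 did not. Under the Gfap threshold the ratios were 1.11, 0.948 and 0.864. By Gfap bin, Mt2 was at 1506, 1178 and 1197 CPM in the 3 WT bins above the threshold and at 2469, 2947 and 3172 CPM in 60TM. In astrocytes with no Gfap UMI the order was the reverse, with 1510 CPM in WT and 1121 in 60TM.

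Of 18 targets of Nrf2, the transcription factor that senses oxidants, 16 were compared, with a median log2 ratio of 0.54. Prdx1, a peroxidase, was at 872 and 1653 CPM (1.90, 1.68 to 2.15), Gstm1, a glutathione transferase, at 1369 and 2332 CPM (1.70, 1.55 to 1.88), and Mgst1 at 212 and 423 CPM (2.001, 1.56 to 2.60). Txnrd1, thioredoxin reductase, was at 28.9 and 99.9 CPM (3.46, 1.81 to 7.63). Srxn1 (3.30) and Gsr (2.03) rested on 4 and 8 WT UMIs. Srxn1 and Hmox1 were under 25 CPM in WT, and the median over all 18 targets without the filter was 0.56. Hmox1, which degrades heme, had 3 WT UMIs and a ratio of 5.67 (1.91 to 27.7), and 3 cells held 56.3% of its 60TM UMIs. Slc7a11, the cystine importer, was at 365 and 487 CPM (1.33) and did not pass. Under the threshold 1 of 13 was higher and 1 lower, with a median of -0.04. In cells of 4000 to 15000 UMIs the median in Gfap-high cells was 0.47, and in cells with none of Tnc, Hhatl and Col11a2 it was 0.49.

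**Figure D4:**
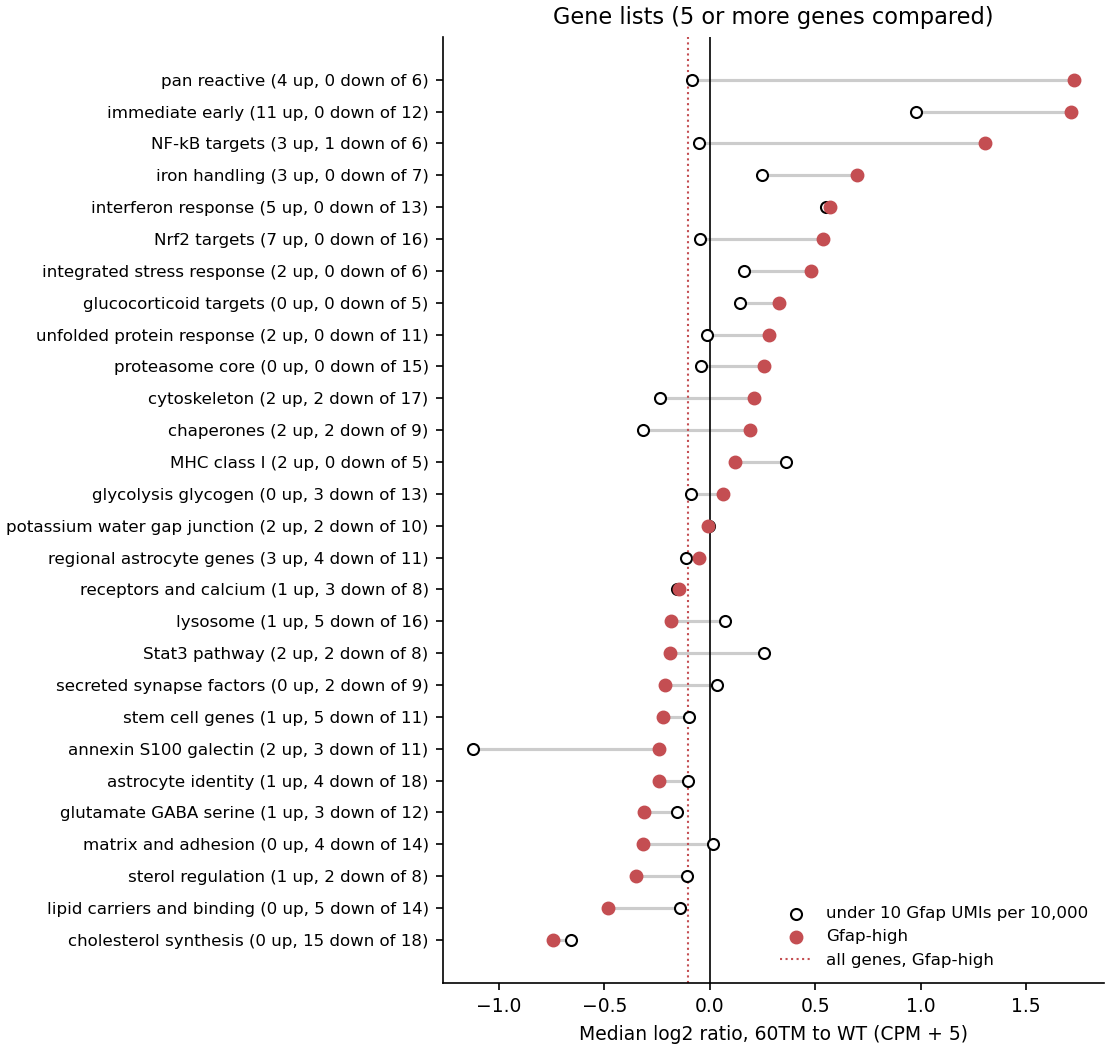
Median log2 ratio (60TM to WT, CPM plus 5) of gene lists with 5 or more genes compared, in Gfap-high astrocytes (filled) and in astrocytes under the Gfap threshold (open), with the numbers at least 1.5-fold higher (up) and lower (down) beside each name. The places of the pan-reactive (1.73), immediate early (1.71) and NF-kB target genes (1.30) depend in part on the filter, since 4, 4 and 2 of their higher genes passed it only through 60TM. Cholesterol synthesis genes (-0.74) lie at the lower end, and the Nrf2 targets are apart from 0 in the Gfap-high cells (0.54 against -0.04).

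Genes of cholesterol synthesis were lower. Of 19 genes 18 were compared, and 15 were at least 1.5-fold lower in 60TM and none higher, with a median log2 ratio of -0.74. Hmgcs1, which makes the precursor of mevalonate, was at 436 and 209 CPM (ratio 0.479, 0.399 to 0.578). Sqle, which makes squalene epoxide, was at 221 and 126 CPM (0.571, 0.444 to 0.745). Msmo1, a sterol demethylase, was at 747 and 465 CPM (0.622), and Cyp51 at 234 and 104 CPM (0.446). Dhcr7 (0.356), a reductase late in the pathway, Tm7sf2 (0.237) and Mvd (0.390) were lower too. Under the Gfap threshold 11 of 18 were lower and none higher, with a median of -0.66. At 20 or more Gfap UMIs per 10000, with 21 WT cells, the median was -0.18, and Mvd turned to a ratio of 1.05. Insig1, a sterol sensor, was lower (0.465), and Abca1, which exports cholesterol, was higher at 89.8 and 165 CPM (1.84, 1.26 to 2.79).

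Transcription of this pathway is known to depend on SREBP2 acting together with NF-Y, and 3 promoters of the group are shown for these motifs. Capitals mark the sterol regulatory element core TCACNCCAC and the NF-Y box CCAAT on either strand. The stretches lie at chr13:119690114-119690233 (plus strand) for Hmgcs1, chr8:64733619-64733738 (minus) for Msmo1 and chr13:8885486-8885605 (plus) for Idi1. They are from RefSeq on GRCm38.p6, each 120 bases long and before the start annotated by RefSeq. By the gene bounds of the GENCODE M21 annotation, the Msmo1 stretch lies inside the gene and the Idi1 stretch mostly so.
Hmgcs1: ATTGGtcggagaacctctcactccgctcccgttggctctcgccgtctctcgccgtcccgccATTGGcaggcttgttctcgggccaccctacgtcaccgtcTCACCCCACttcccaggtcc
Msmo1: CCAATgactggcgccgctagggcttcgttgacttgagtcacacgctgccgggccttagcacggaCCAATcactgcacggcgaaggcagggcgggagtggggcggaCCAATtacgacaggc
Idi1: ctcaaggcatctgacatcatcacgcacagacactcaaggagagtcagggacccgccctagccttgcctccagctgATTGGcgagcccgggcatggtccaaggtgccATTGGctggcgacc
An NF-Y box was in 13 of the 14 cholesterol genes with a promoter (92.9%), against 34.5% of all promoters, and the sterol element core in 1 of 14 (7.14%), against 1.04%. Idi1, the isomerase of the isoprenoid step, was at 234 and 146 CPM (0.625, 0.490 to 0.808). Hmgcs1 alone held the sterol element core in this window, and a window without it says only that these letters are not there.

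Lipid handling was lower in part. Of 14 compared carriers and lipid enzymes 5 were lower and none higher (median -0.48). Fabp7, a fatty acid carrier of immature astrocytes, was at 750 and 354 CPM (0.472, 0.411 to 0.544), Fads2, a desaturase, at 513 and 243 CPM (0.475), and Scd2 at 1622 and 1076 CPM (0.663). Apoe, the main lipoprotein of astrocytes, was at 26291 and 19675 CPM (0.748, 0.732 to 0.766), under the 1.5-fold rule.

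Single functional genes of the astrocyte membrane went both ways. Slc1a2, the main glutamate transporter, was at 9499 and 5879 CPM (0.619, 0.596 to 0.643), while under the threshold it was at 6331 and 6021 CPM (0.951), a ratio of ratios of 0.651 (0.625 to 0.677). Over the alternatives the Slc1a2 ratio above the threshold ran from 0.536 with each cell weighted equally to 0.801 in cells of 4000 to 15000 UMIs. It was 0.756 at 5 or more Gfap UMIs per 10000, and neither 0.756 nor 0.801 passes the 1.5-fold rule. Glul, which turns glutamate into glutamine, was higher at 1523 and 2395 CPM (1.57, 1.43 to 1.73). Aqp4, the water channel of astrocyte endfeet, was at 1795 and 794 CPM (0.442, 0.404 to 0.485), and Gja1, the gap junction protein connexin 43, at 2247 and 1307 CPM (0.581). At 20 or more Gfap UMIs per 10000 the Aqp4 ratio was 0.874. Kcnj10, the main potassium channel, was higher at 151 and 227 CPM (1.505, 1.12 to 2.06), and so was Kcnk1 at 196 and 370 CPM (1.89, 1.46 to 2.49). Thus 3 of 12 glutamate, GABA and serine genes were lower and 1 higher, and 2 of 10 potassium, water and gap junction genes were lower and 2 higher. Among all genes compared, 13.4% were lower and 5.33% higher by the same rule. The median log2 ratios of these lists were -0.31 and -0.007. At 20 or more Gfap UMIs per 10000 both had the other sign, 0.25 and 0.27.

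Among receptors, Gabbr1 (0.539), Ednrb (0.605) and the nucleotide-hydrolysing Entpd2 (0.419) were lower and Adora2b, an adenosine receptor, was higher at 32.1 and 90.4 CPM (2.82, 1.52 to 5.93), 4 of 8 compared. In the matrix list 4 of 14 were lower and none higher, including the perineuronal proteoglycans Bcan (1318 and 738 CPM, 0.560) and Ncan (224 and 98.5 CPM, 0.439). By the same rule 13.4% of all compared genes were lower and 5.33% higher.

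Of the 14 genes with the lowest ratios, 12 were higher above than under the Gfap threshold in WT with intervals above 1, Enkur was lower there, and the interval of Nuf2 included 1. The WT level above the threshold was part of the ranking, so these counts are a description. Agt (chr8:124556534-124569706, minus strand) encodes angiotensinogen, the precursor of angiotensin peptides. It was at 625 CPM in 41 of 68 WT cells and at 129 CPM in 214 of 546 60TM cells, a ratio of 0.207 (0.175 to 0.245), against 0.591 under the threshold. Igfbp5 (chr1:72857932-72874884, minus strand), another growth factor binding protein, was at 593 CPM in 38 WT cells and 74.0 CPM in 142 60TM cells, a ratio of 0.125 (0.104 to 0.150). Both were highest in WT cells with the most Gfap: Agt was at 574, 683 and 831 CPM in the 3 WT bins above the threshold and at 138, 102 and 161 CPM in 60TM. Igfbp5 was at 473, 777 and 964 CPM in WT and at 57.3, 106 and 285 CPM in 60TM. From 10 to under 20 alone the ratios were 0.240 (0.195 to 0.297) and 0.121 (0.0941 to 0.157).

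Padi2, which converts arginine to citrulline in proteins including GFAP, was at 163 CPM in 28 of 68 WT cells and at 14.8 CPM in 50 of 546 60TM cells, a ratio of 0.0902 (0.0613 to 0.133). After thinning, 28.6% of WT and 3.82% of 60TM Gfap-high cells had a UMI of Padi2, 42.9% and 9.24% of Igfbp5, and 55.1% and 20.5% of Agt. The 60TM share of Padi2 was near that of thinned microglia, 4.09% in 60TM and 5.22% in WT. Without thinning, 60TM microglia were at 25.5 CPM of Padi2, above the 14.8 CPM of the 60TM Gfap-high cells. Gated 60TM astrocytes with neither a Lcn2 nor a Gfap UMI were at 5.53 CPM. The part of free RNA in the 60TM level of Padi2 was not tested. Fxyd6, a subunit that tunes the sodium pump, was at 151 and 18.6 CPM (0.123), Sned1 at 109 and 11.7 CPM (0.107), and Nsmf at 167 and 34.3 CPM (0.206). Cidea, a lipid droplet protein, was at 51.3 and 2.38 CPM (0.0464), Disp3 at 80.1 and 7.38 CPM (0.0920), and C1ql1, a secreted C1q-like synaptic protein, at 80.1 and 9.52 CPM (0.119). Adamts9, Rspo3, Nuf2, Enkur and Chd5 ranked among the lowest as well, with ratios from 0.114 to 0.163. Nuf2 and Enkur drew 63.3% and 83.3% of their WT UMIs from 3 cells. In cells with none of Tnc, Hhatl and Col11a2 the ratios of Agt, Igfbp5 and Padi2 were 0.208, 0.161 and 0.0764.

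**Figure D5:**
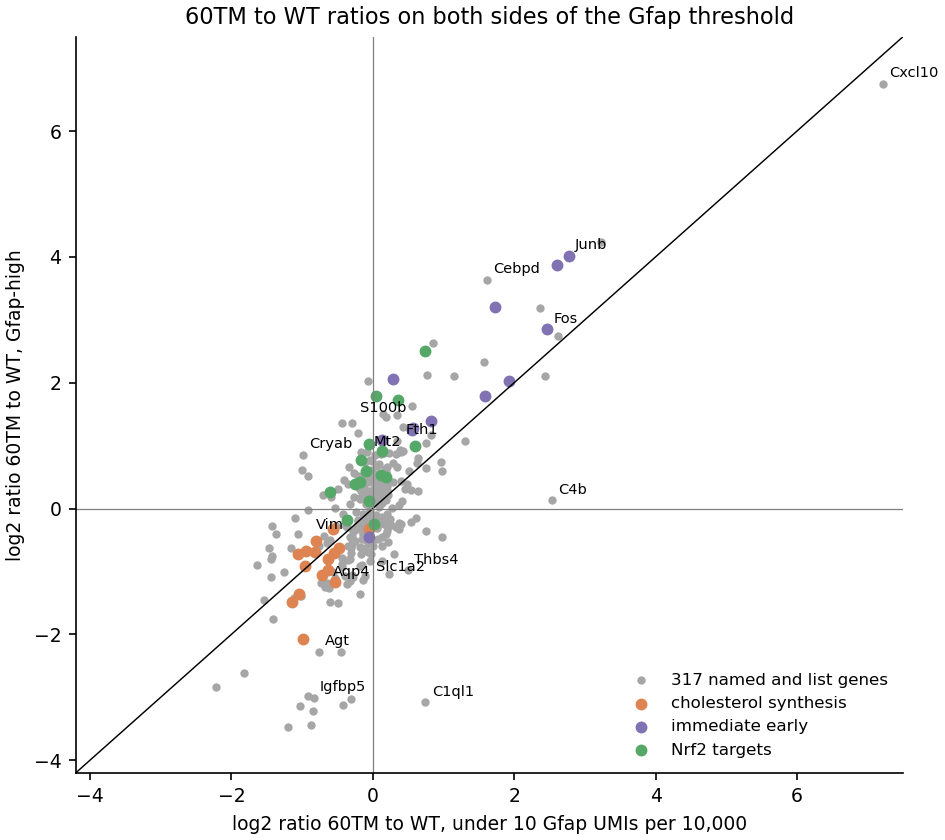
Log2 ratio of 60TM to WT in Gfap-high astrocytes (y axis) against that in astrocytes under the Gfap threshold (x axis) for 317 named and list genes, with the line of equal ratio. C4b lies far below the line, Cebpd, Fth1 and S100b above it, and C1ql1 and Thbs4 are lower above the threshold and higher under it.

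Of 18 compared genes of astrocyte identity, 4 were lower and 1 higher, while 13.4% of all compared genes were lower and 5.33% higher. Cpe (4767 and 2259 CPM, 0.474), Id4 (1353 and 774 CPM, 0.572), Id2 (0.613) and Ttyh1 (0.647) were lower, and S100b, a calcium-binding protein, was higher at 96.2 and 247 CPM (2.57, 1.79 to 3.83). The S100b ratio was 1.59 with at most 5% mitochondrial UMIs and 5.13 in cells with none of Tnc, Hhatl and Col11a2. Thbs4, a thrombospondin that promotes synapses, was at 266 and 135 CPM (0.508, 0.403 to 0.647), against 39.8 and 56.3 CPM (1.41) under the threshold.

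The 473 astrocytes of 60TM with a Lcn2 UMI are the nearest group, chosen by the same gate except for Lcn2 and with no Gfap threshold. Their median depth was 10982 UMIs and their median Gfap level 15.7 per 10000, with a lower quartile of 8.86. The median of 15.8 in the 60TM Gfap-high cells without Lcn2 was set in part by the threshold, so the 2 groups are not matched on Gfap. Ccl2 was 13.8-fold (12.1 to 15.8) higher with Lcn2, Steap4 8.72-fold (6.23 to 12.5), Cxcl10 4.10-fold (3.88 to 4.34), Hmox1 4.54-fold (3.95 to 5.24), Cebpd 2.35-fold (2.25 to 2.45) and Vim 2.06-fold (1.97 to 2.15). C4b had a ratio of 0.946 (0.876 to 1.02), at 257 CPM with Lcn2 and 272 CPM without. Slc1a2 was lower with Lcn2 (0.643, 0.632 to 0.655), as were Gja1 (0.690) and Thbs4 (0.337). The ratios of Aqp4, 1.02 (0.977 to 1.07), and Igfbp5, 1.08 (0.930 to 1.24), had intervals that included 1. Both groups come from 1 library, so these intervals compare cells of 1 pool.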

How the data were processed

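Single-cell RNA of the hippocampus was measured in 2 libraries, 1 per genotype, each pooled from 3 mice. The deposited matrices hold raw counts of UMIs per gene (32285 genes) and barcode, with no normalization. Cell Ranger 5.0.0 and the build GRCm38 are named per the submitters' processing notes. The sources used here do not state if intronic reads were counted. Gene and barcode names are in separate deposited files without measured values (unit: other), and 0 columns of other samples were present.

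UMIs were summed over the cells of each library and scaled to CPM. The ratio is 60TM over WT, with an exact conditional-binomial interval, and a WT value of 0 was set to a floor of 3 UMIs. Ratios of ratios carry an interval from the counts on the log scale. List medians used log2 of CPM plus 5. Low values were left out under a mean of 25 CPM. Poisson and Clopper-Pearson intervals cover counting error only. Microglia, used as a background, had a UMI of at least 4 of 5 microglial markers and fewer than 2 of the 7 astrocyte markers. No barcode was removed as a doublet in the main comparison. As an alternative, Scrublet in scanpy 1.11.5 marked 377 WT (5.49%) and 610 60TM (6.98%) barcodes. Tools were Python 3.11.15, numpy 2.4.6, scipy 1.17.1, pandas 2.3.3 and matplotlib 3.10.9, and the ratio and interval code was tested on simulated data. Gene positions are from GENCODE M21, which matched all 563 list and named genes.

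The genes named were the 14 highest and 14 lowest ratios, ranked by the bound nearest to 1, without mitochondrial, ribosomal, predicted, sex-linked and the 15 selection genes, together with compared genes of 34 pathway lists and 11 marker lists. Some genes that count in their lists are not reported singly here. The cells, lists and rules were chosen with earlier results of these data known. In all, 16 planned and 3 added alternatives were computed.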

Additional observations from a re-analysis of the deposited data

Results flagged for a closer look

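Only the compared named and list genes were searched, of which 318 had a UMI in both libraries. In Gfap-high astrocytes, 13 of the genes searched had a 60TM to WT ratio at least 1.5-fold from 1. Under the Gfap threshold their ratios lay on the other side of 1. Both counting intervals were clear of 1 (or, for a gene at 0 in WT, the lower bound was above 1). The difference was not tested, since each genotype has 1 library. Cryab, the small heat shock protein of Rosenthal fibres, had ratios of 1.81 above and 0.505 under the threshold. S100b had 2.57 and 0.815, Tagln2, an actin-binding protein, 2.56 and 0.739, Tubb2a, a tubulin, 1.86 and 0.892, Mt2 1.86 and 0.948, and Gstm1 1.70 and 0.892. Against the floor of 3 WT UMIs, Igfbp2 was at least 11.97-fold higher above the threshold (exact lower bound 9.70) and had a ratio of 0.898 under it. C3 was at least 5.84-fold higher (exact lower bound 4.71) and had 0.629.

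The other genes were lower in 60TM above the threshold and higher under it. C1ql1 had ratios of 0.119 and 1.68, Thbs4 0.508 and 1.41, Col4a1, a basement membrane collagen, 0.489 and 1.17, Lifr 0.609 and 1.23, and Npc2, a lysosomal cholesterol carrier, 0.661 and 1.09. Under the threshold, 99 of 126 WT UMIs of C1ql1 lay in 13 cells with no Gfap UMI. In 60TM, 223 of 263 lay in 23 such cells. The astrocytes under the threshold differed between libraries in markers of other cells: their summed ependymal markers were at 2458 CPM in WT and 660 in 60TM, choroid plexus markers at 1111 and 9718 CPM, and endothelial markers at 615 and 1000 CPM. Their summed oligodendrocyte precursor markers were at 222 and 332 CPM. Ttr gave 7673 of the 8283 choroid plexus UMIs in WT, where 1 cell held 91.1% of the sum, and 89401 of the 90203 in 60TM, and the other 4 markers were at 81.8 and 86.4 CPM. The part of these cells in the ratios was not tested. Without the cell that held the most UMIs of each gene in each library, the ratios under the threshold were 0.516 for Cryab, 0.576 for C3, 0.835 for Igfbp2, 1.85 for C1ql1 and 1.45 for Thbs4.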

How the results depend on the processing

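No paired analysis was possible because each genotype has 1 library. No replicate could be left out. The depth of the 68 WT cells limits every ratio of a gene with few WT UMIs. Of 4746 ratios of single genes under the alternatives, 4367 kept their call at 2-fold (higher, lower or neither). Of the others, 220 no longer passed, 153 newly passed and 6, all of called genes, turned direction. A gene not called could cross 1 and still count as kept, as Vim did (0.596 to 1.36 over the alternatives). Of 349 ratios of 24 named genes, 345 stayed called and 4 did not (Enkur with all 7 markers and when thinned, Chd5 and Disp3 without Tnc, Hhatl and Col11a2). Igfbp2, Ccnd1, Ccl2 and C3, with no WT UMI, had no such ratio, and settings that left a gene no UMI in 1 library were skipped. The named genes were picked by their ratios in these same cells, so the 345 are no independent support. Of 528 recomputed list medians, 61 in 17 lists had the other sign than the reported one, and 57 moved beyond the medians of their genes' interval bounds. None of the 61 was in the 8 lists whose bounds lay on one side of 0, and none was in the immediate early, Nrf2, metallothionein or cholesterol list. Dividing by the median ratio turned the medians of intermediate filaments (0.03), potassium, water and gap junction genes (0.10) and regional astrocyte genes (0.05).

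The share of astrocytes was 17.4% in WT and 53.8% in 60TM at 5 or more Gfap UMIs per 10000, and 2.12% and 9.20% at 20 or more. In 60TM it was 28.2% with at most 5% mitochondrial UMIs and 22.002% without cells carrying Cxcl10, Ccl2, Cxcl1, C3 or Steap4. Genes at least 2-fold higher and lower numbered 81 and 183 at 5 or more Gfap UMIs per 10000, 275 and 711 with each cell weighted equally, 361 and 673 with equal weights over Gfap bins (the last 2 without intervals), 76 and 156 at 50 CPM, and 56 and 94 at 3-fold. The lower genes numbered 707 at 10 CPM and, in an alternative added after seeing the data, 235 without the top cell of each gene. These settings change the cells, genes or threshold counted.

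The metallothionein median was 0.64 with at most 5% mitochondrial UMIs, 0.58 and 1.10 at 5 and 20 Gfap UMIs per 10000, 0.72 in cells of 4000 to 15000 UMIs, 0.96 without Tnc, Hhatl and Col11a2 (also added after seeing the data), 0.70 when thinned, 0.95 over bins and 0.99 when divided by the median ratio. The median log2 ratio divided out was -0.11, so that division raises every ratio. The cholesterol median was -0.18 at 20 or more Gfap UMIs per 10000. Among called genes, ratios turned for Tm4sf1 (1.08 with all 7 markers, 1.10 without the 3 genes). Those of Mvd (1.05) and Insig1 (1.25) turned at 20 or more Gfap UMIs per 10000, that of Tagln2 (0.862) at 5 or more, and that of Myoc (2.42) over bins. The ratio of ratios of Vim, 1.86, became 0.883 with all 7 markers, 0.977 without cells carrying Cxcl10, Ccl2, Cxcl1, C3 or Steap4, 0.746 in cells of 4000 to 15000 UMIs and 0.578 without the 3 genes, and that of Aqp4, 0.693, became 1.33 at 20 or more Gfap UMIs per 10000. The cause was not tested.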

Other observations

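Protein quality control genes of the Gfap-high astrocytes, which the report does not describe, went in both directions. Of 9 compared chaperones, Cryab (135 CPM in WT and 244 in 60TM, ratio 1.81, 1.33 to 2.53) and Hspa8, the constitutive heat shock chaperone (510 and 931 CPM, 1.83, 1.56 to 2.15), were at least 1.5-fold higher, and Hspb8 (103 and 68.05 CPM, 0.663) and its partner Bag3 (48.1 and 25.2 CPM, 0.524) were lower. Of 11 genes of the unfolded protein response, Hspa5 (1.51) and Herpud1 (1.65) were higher and none lower. Of 6 genes of the integrated stress response, Ddit4 (2.74) and Slc3a2 (1.83) were higher. None of 15 compared core proteasome genes passed the 1.5-fold rule, with a median log2 ratio of 0.26. By this rule 5.33% of all compared genes were higher and 13.4% lower.

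Of 16 lysosomal genes, Ctsl was higher (407 and 646 CPM, 1.59) and 5 were lower, among them Psap, the precursor of sphingolipid activators (1619 and 758 CPM, 0.468, 0.426 to 0.515), and the cholesterol exporters Npc1 (0.605) and Npc2 (0.661), while under the Gfap threshold none of 16 passed. Of 13 compared genes of glycolysis and glycogen, 3 were lower and none higher, with a median log2 ratio of 0.065. Among all genes compared, 13.4% were lower by the same rule. The 3 were Pygb, which breaks down glycogen (356 and 177 CPM, 0.499), Ppp1r3c (0.449) and Slc16a1, a lactate transporter (0.442). Of 11 compared stem cell genes 5 were lower, among them Fabp7, Emx1 (0.357), Lpar1 (0.416) and Riiad1 (0.535), and Sox4 (1.67) alone was higher. Of the 5, 2 were under 25 CPM in 60TM, and over all 15 genes without the filter the median log2 ratio was 0. Among 17 cytoskeleton genes, Tubb2a (362 and 672 CPM, 1.86) and Tagln2 were higher and Map1b (0.354) and Tuba1b (0.662) lower. Ccnd2, a cell cycle cyclin, was at 80.1 and 153 CPM (1.91, 1.28 to 2.97).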
